A study of Mus musculus with 12 samples.

Results

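Skin of Thy-1 knockout (KO) mice given bleomycin (KO BLM, mice 141, 143 and 144) was compared with skin of KO mice given PBS (KO PBS, mice 136, 137 and 139) across all genes. These 6 mice were chosen by their labels and are 6 of the 12 mice in the series, with 3 mice on each side. All 6 carried the Thy1 knockout on the C57/BL6 strain, and the study's methods describe KO animals that were female, 8 to 12 weeks old and backcrossed to that strain, with littermates as controls. The knockout is given for the animal as a whole, with no promoter or Cre line named. Bleomycin or its vehicle PBS was injected daily under the skin of the back, and skin was taken at day 21. The remaining 6 mice, wild-type (WT) animals of the same strain given PBS or bleomycin on the same schedule, also entered the fit, where they shared the estimate of the spread and the filter on low counts, and were used to test where the KO response differed.

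Bleomycin is a drug that breaks DNA. Injected under the skin it brings inflammation, loss of dermal fat and a collagen-rich scar, and it is used as a model of scleroderma. Thy-1 is a protein tethered to the outer face of the cell membrane that is carried by fibroblasts, T cells and neurons in the mouse. Full-thickness skin of the mouse back also holds a thin sheet of skeletal muscle, dermal fat and hair follicles, and the follicles alternate between growth and rest.

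Between 30337913 and 33270714 reads per KO mouse were counted on genes. Of the 55453 genes listed, 18311 had enough counts to be tested in edgeR, and CPM values are counts scaled to the size of the normalized library. The markers of epidermis and dermis were present in all 6 libraries, with Krt5 at 4070 to 6460 CPM and Col3a1 at 1490 to 6390 CPM, and so was muscle, with Acta1 at 1780 to 7190 CPM. Thy1 was not lost from the counts of KO mice. Its values were 45.6, 96.9 and 77.4 CPM in KO PBS mice 136, 137 and 139 and 84.7, 128 and 96.4 CPM in KO BLM mice 141, 143 and 144, and the order of mice is the same wherever 3 values are given below. The difference between KO BLM and KO PBS mice did not pass (log2 fold change 0.49, adjusted p = 0.369). The WT PBS mice had 104, 115 and 149.6 CPM, so KO PBS libraries lay below them while KO BLM libraries overlapped them. The WT BLM mice had 231, 349 and 416 CPM, and all KO BLM libraries lay below these. The counts are per gene, and which part of Thy1 these reads came from was not tested. Tnfrsf23, chosen after its values were seen, had 0 to 5 counts in the 6 libraries labelled KO and 189 to 949 counts in the 6 labelled WT, so the genotype labels separate the libraries at that gene. KO below means the label.

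A pair of KO libraries stood apart from the rest of their groups. The mean log2 CPM of 41 hair genes, which make the growing shaft and its root sheaths, was 9.33 in KO PBS mouse 136 against -0.67 and 2.21 in mice 137 and 139, and 8.25 in KO BLM mouse 141 against 4.29 and 5.32 in mice 143 and 144. All 3 WT PBS mice were also high and all 3 WT BLM mice low. Mice 136 and 141 were therefore left out together as an alternative throughout, which leaves 2 mice on each side. In that fit 13.5% of all genes were called higher and 8.73% lower, which are the shares to hold beside its list counts. The pair was picked from the values of these data, so the calls of that fit are descriptions and no independent support. Among the mice kept, hair levels still lay apart, at -0.67 and 2.21 in KO PBS and 4.29 and 5.32 in KO BLM mice. The mean level of the hair list was also added to the model of all 12 mice as a covariate.

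**Figure D1:**
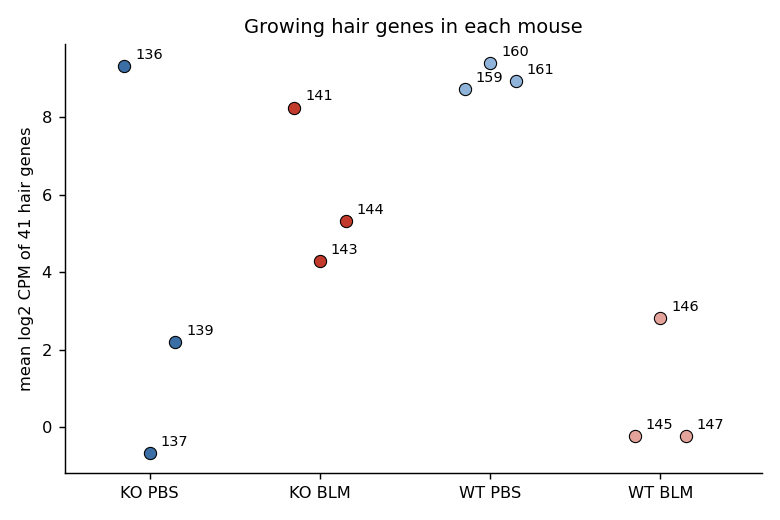
Mean log2 CPM of 41 growing hair genes (y axis) in each of the 12 mice, by group (x axis), with mouse numbers beside the points. Mouse 136 at 9.33 and mouse 141 at 8.25 lie far above the other mice of their groups, the nearest of which are at 2.21 and 5.32.

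Bleomycin raised 46 genes and lowered 10 in KO skin (adjusted p under 0.05, edgeR's quasi-likelihood test). These 56 genes are 0.306% of the 18311 tested, with 0.251% higher and 0.0546% lower. An unadjusted p under 0.05 in edgeR was found for 3665 of the 18311, the share to hold beside such counts for the lists below. The changes were large: 44 of the 56 changed at least 4-fold, and in all 56 the 3 BLM values lay entirely to one side of the 3 PBS values. Over all genes tested, the BLM mice lay above all PBS mice for 10.8% and below them for 8.44%. Of the 46 raised genes, 32 were highest in mouse 144 and 36 were lowest in mouse 141, so the BLM mice shared a direction but differed in degree. Among the raised genes were members of the regenerating and slow muscle, stefin, epidermal differentiation, scar matrix, myofibroblast and chemokine lists, and among the lowered genes members of the resident dermal fibroblast and TGF-β lists.

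The number of calls depended on which mice entered the fit. Without mouse 136 the count was 2632 and without mouse 141 it was 1162, in each case with all 56 genes among the calls, and with both left out it was 4164 of 18688 genes tested, again with all 56. It was 14 without mouse 137, of which 6 were among the 56, and 0 without mouse 139, 143 or 144, with 2548, 2283 and 1830 genes at an unadjusted p under 0.05 in edgeR. The WT mice enter the gene filter, the scaling and the shared estimate of the spread, and leaving out WT mouse 159 or 161 also gave 0 calls, with 3360 and 3458 genes at an unadjusted p under 0.05, and leaving out WT mice 160, 145, 146 and 147 gave 3, 23, 19 and 10. DESeq2 called 1202 genes (5.95% of 20198), among them all 56. On the 6 KO mice alone edgeR called none (0), with 2214 genes at an unadjusted p under 0.05, and DESeq2 called 600. With the hair list as a covariate edgeR called 1746 genes, again with all 56. None of the 56 genes changed sign in any of these fits. Their groups did not overlap, so a change of sign was hardly possible, and the kept signs are no separate support.

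**Figure D2:**
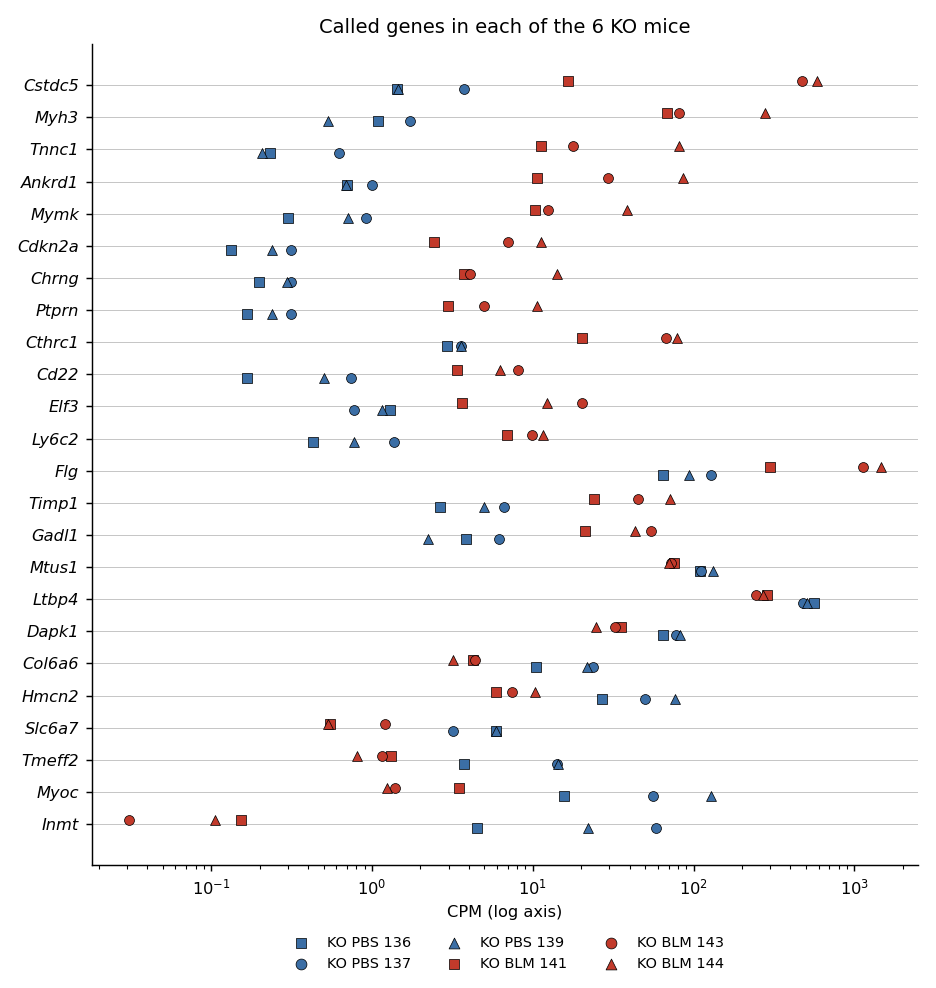
CPM (x axis, log scale) of 24 called genes (y axis) in each of the 6 KO mice, blue for KO PBS and red for KO BLM, with a marker for each mouse. For every gene the 3 red and 3 blue markers do not overlap, and in the upper part of the plot the red square of mouse 141 is mostly the lowest of the 3 BLM values.

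Genes of embryonic and slow-twitch muscle were among the most strongly raised. Myh3, the embryonic myosin heavy chain that muscle makes again while it regenerates, had 1.10, 1.71 and 0.536 CPM in KO PBS and 68.6, 81.2 and 277 CPM in KO BLM mice. The lowest BLM value was far above the highest PBS value, and the log2 fold change was 6.99 (standard error, SE, of 1.18, with an adjusted p of 0.0467). Tnnc1, the troponin C of slow muscle and heart, had 0.233, 0.629 and 0.209 CPM against 11.3, 17.7 and 81.2 CPM, a log2 fold change of 6.65 (SE 0.93, adjusted p = 0.0341). It was barely counted in any PBS mouse. Mymk, which encodes the fusion protein myomaker that joins myoblasts into fibres, had 0.299, 0.914 and 0.715 CPM against 10.4, 12.5 and 38.7 CPM and rose by 4.98 (SE 0.79, adjusted p = 0.0414). The BLM mice were all above 10 CPM at Mymk and the PBS mice all below 1. Chrng, the fetal subunit of the muscle acetylcholine receptor, had 0.199, 0.314 and 0.298 CPM against 3.73, 4.06 and 14.1 CPM and rose by 4.73 (SE 0.78, adjusted p = 0.0454). Ptprn, a protein of secretory vesicles, rose by 4.65 (adjusted p = 0.0449) and Gadl1, an enzyme of β-alanine synthesis, by 3.28 (adjusted p = 0.0341), and neither belongs to a list. Ankrd1, a stretch-responsive muscle gene that is also a target of the Hippo pathway's effectors, went from 0.698, 1.0 and 0.685 CPM to 10.6, 29.4 and 85.5 CPM, a log2 fold change of 5.71 (adjusted p = 0.0341). Mouse 144 was the highest at Myh3, Tnnc1, Mymk, Chrng and Ankrd1.

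The stretches just before the start sites of these muscle genes are shown because the genes moved together. They are 150 bases long, from RefSeq on GRCm38.p6, read 5′ to 3′ on the gene's strand. Myh3 is on chr11:67078150-67078299 (plus strand), Tnnc1 on chr14:31208162-31208311 (plus strand) and Chrng on chr1:87205661-87205810 (plus strand), and no entry was found for Mymk. The Chrng window precedes the RefSeq start, whereas the gene as annotated by GENCODE begins farther upstream, at position 87204657. Capitals mark TATAAA in Myh3 and CANNTG, the E-box that muscle regulators of the MyoD family bind, in Tnnc1 and Chrng.
Myh3: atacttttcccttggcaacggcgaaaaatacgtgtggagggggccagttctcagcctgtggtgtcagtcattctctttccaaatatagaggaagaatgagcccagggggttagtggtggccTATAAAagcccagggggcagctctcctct
Tnnc1: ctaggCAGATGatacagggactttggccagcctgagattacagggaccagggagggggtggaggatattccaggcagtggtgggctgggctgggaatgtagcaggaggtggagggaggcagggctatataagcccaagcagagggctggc
Chrng: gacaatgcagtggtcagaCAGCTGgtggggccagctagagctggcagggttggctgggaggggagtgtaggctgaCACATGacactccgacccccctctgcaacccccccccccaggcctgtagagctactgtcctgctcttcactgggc
TATAAA begins 29 bases before the Myh3 start. The E-box of Tnnc1 begins 145 bases before its start, and Chrng holds an E-box 132 and another 75 bases before its start, the first with the letters CAGCTG. Searched on both strands, TATAAA is in 7.57%, CAGCTG in 8.39% and CANNTG, which takes in CAGCTG, in 47.7% of the 32851 windows of this length, so a match to CANNTG is common.

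Over the whole list of 23 regenerating muscle genes tested, 3 were called higher and none (0) lower, 17 had all BLM mice above all PBS mice, and the median log2 fold change was 2.22, against -0.0070 over all genes tested. Myog, the transcription factor of differentiating myoblasts, is an example that did not pass, with 0.831, 3.97 and 3.37 CPM against 20.9, 20.6 and 65.6 CPM and an adjusted p of 0.0585. The 15 slow-muscle genes had a median of 1.95, with 1 called higher. Tnni1 and Tnnt1, the slow troponins I and T, had log2 fold changes of 4.42 and 3.55 (adjusted p = 0.0649 and 0.0612), and neither passed with all mice. Of 26 genes of denervated muscle and the neuromuscular junction, 2 were called higher, Ankrd1 and Chrng, and 8 had all BLM mice above all PBS mice.

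Mature fast-fibre genes did not move with them. None of 32 (0) was called with all mice in edgeR (4 at an unadjusted p under 0.05 and 0 higher and 0 lower in DESeq2), all 32 had groups that overlapped, and their median was -0.35. Their mean log2 CPM was 7.41, 9.48 and 9.25 in KO PBS and 8.49, 8.19 and 8.96 in KO BLM mice, with mouse 136 the lowest of the 6. Myh4, the heavy chain of the fastest fibres, had 1703, 7653 and 6427 CPM in KO PBS and 2772, 312 and 61.9 CPM in KO BLM mice. With all mice its log2 fold change was -2.33 (adjusted p = 0.359), and without mice 136 and 141 it fell by 5.24 on the log2 scale (adjusted p = 0.0398). Mstn, which encodes the growth inhibitor myostatin made by such fibres, fell by 5.19 in that fit (adjusted p = 0.0169), with 18.1, 76.8 and 88.6 CPM against 12.5, 2.33 and 2.19 CPM in the full groups. Without the pair, the fast list had 1 member called higher and 5 lower, the slow list 8 higher and none (0) lower, and the regenerating list 11 higher and 1 lower, where 13.5% of all genes were called higher and 8.73% lower. In bulk skin, fewer cells of a type and less RNA per cell cannot be told apart.

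The highest median of the 43 lists was that of the stefin A genes, a cluster of cysteine protease inhibitors made by stressed keratinocytes and by neutrophils. Cstdc5, a stefin A gene, had 1.43, 3.71 and 1.46 CPM in KO PBS and 16.5, 472 and 585 CPM in KO BLM mice, a log2 fold change of 7.34 (SE 1.25, adjusted p = 0.0467). Mouse 141 was far below mice 143 and 144 and still above the PBS mice. Its neighbour Stfa3 had 0.897, 5.06 and 6.14 CPM against 21.7, 486 and 658 CPM (log2 fold change 6.59, adjusted p = 0.0585). Stfa1 had 0.0665, 0.743 and 0.358 CPM against 1.07, 51.6 and 75.5 CPM (log2 fold change 6.74, adjusted p = 0.0755). Both missed the threshold, with mouse 141 again the lowest BLM mouse. All 8 stefin genes tested had a log2 fold change above 0, with a median of 6.40, or 5.45 with the 2 genes that had at most 3 counts in every PBS mouse set at their lower bound, and without mice 136 and 141 7 of the 8 were called higher. The mean log2 CPM of the stefin list was 0.76, 0.78 and 0.48 in KO PBS and 2.29, 5.88 and 6.39 in KO BLM mice. That of 11 neutrophil genes was 0.02, 0.36 and 0.32 and 1.09, 2.92 and 3.20, in the same order among the BLM mice. The part of either cell type in the stefin values was not tested.

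The stefin genes lie side by side on chromosome 16 and are so alike that their reads may be shared among them, so the split of counts between members is uncertain. The 150 bases before each start show this likeness. Cstdc5 is on chr16:36367571-36367720 (minus strand), Stfa1 on chr16:36276998-36277147 (plus strand), Stfa2 on chr16:36408364-36408513 (minus strand) and Stfa3 on chr16:36455393-36455542 (minus strand), all from RefSeq on GRCm38.p6. Capitals mark CTTTAAAAC, a run that all 4 share and that was picked out after these sequences were read.
Cstdc5: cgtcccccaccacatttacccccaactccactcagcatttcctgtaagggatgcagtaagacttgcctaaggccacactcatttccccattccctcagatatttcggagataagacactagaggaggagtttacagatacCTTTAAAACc
Stfa1: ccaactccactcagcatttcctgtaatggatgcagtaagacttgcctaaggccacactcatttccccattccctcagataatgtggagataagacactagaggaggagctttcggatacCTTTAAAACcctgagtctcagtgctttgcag
Stfa2: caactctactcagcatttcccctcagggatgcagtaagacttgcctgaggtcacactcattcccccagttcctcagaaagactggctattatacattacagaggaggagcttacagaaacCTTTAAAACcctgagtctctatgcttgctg
Stfa3: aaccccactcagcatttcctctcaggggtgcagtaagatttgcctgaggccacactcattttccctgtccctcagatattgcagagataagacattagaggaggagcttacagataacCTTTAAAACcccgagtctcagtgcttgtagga
Once aligned, Cstdc5 and Stfa1 were identical at 122 of 129 bases (94.6%), Cstdc5 and Stfa3 at 89.8%, and Stfa2 was the most distant, at 83.0% to 83.6% from the others. CTTTAAAAC begins 10 bases before the start in Cstdc5 and 30 to 32 bases before it in the others, and it is found on either strand in 0.219% of the 32851 windows.

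Among genes of the epidermis, Flg, Casp14 and Elf3 rose. Flg, the gene of filaggrin that binds keratin in the outer epidermis, had 64.9, 128 and 93.3 CPM in KO PBS and 298, 1127 and 1463 CPM in KO BLM mice, a log2 fold change of 3.34 (SE 0.55, adjusted p = 0.0454). Casp14, the protease that processes filaggrin, had 116, 117 and 91.6 CPM against 392, 738 and 919 CPM, a log2 fold change of 2.66 (SE 0.39, adjusted p = 0.0341). Elf3, an epithelial transcription factor, had 1.30, 0.771 and 1.16 CPM against 3.64, 20.3 and 12.2 CPM and rose by 3.48 (SE 0.56, adjusted p = 0.0454). At all 3 genes the groups did not overlap and mouse 141 was the lowest of the BLM mice. Of 30 epidermal differentiation genes, Flg and Casp14 were called and the median was 0.74. Krt15, the keratin of basal and follicle stem cells, had 1108, 2507 and 3972 CPM against 1369.7, 874 and 690.1 CPM and did not pass with all mice (adjusted p = 0.161).

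The 34 stress-epidermis genes, the keratins and cornified envelope proteins that wounded skin turns on, had the second highest median of the 43 lists, 3.60, or 3.19 with 6 genes at or under 3 counts in every PBS mouse set at their lower bound. Yet none (0) passed with all mice in edgeR (23 at an unadjusted p under 0.05 and 17 higher and 0 lower in DESeq2). Their mean log2 CPM was 1.87, 0.14 and 0.63 in KO PBS and 1.73, 5.15 and 5.77 in KO BLM mice, so mouse 141 lay below KO PBS mouse 136. Sprr2d, a cornified envelope precursor, had 0.0997, 0.314 and 0.328 CPM against 0.612, 73.3 and 77.9 CPM (adjusted p = 0.0795). Klk13, a kallikrein protease, had 7.84, 2.20 and 2.62 CPM against 23.5, 122 and 158 CPM (adjusted p = 0.0541). Without mice 136 and 141, 29 of the 34 were called higher. In that fit the keratin Krt6b, the hallmark of wound-edge epidermis, rose by 9.92 on the log2 scale (adjusted p = 0.00464), and it had 3.46, 0.972 and 1.07 CPM in the PBS mice and 0.796, 708 and 1278 CPM in the BLM mice. The rise of Krt6b was carried by mice 143 and 144, and mouse 141 was below every PBS mouse. Krt6b and Sprr2d have closely similar neighbours, with which reads may be shared.

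Scar matrix genes were raised in part. Cthrc1, a secreted protein of activated fibroblasts, had 2.93, 3.57 and 3.58 CPM in KO PBS and 20.3, 67.9 and 79.3 CPM in KO BLM mice, a log2 fold change of 4.05 (SE 0.59, adjusted p = 0.0341). Col8a1, a short-chain collagen of remodelling tissue, had 6.08, 10.1 and 6.44 CPM against 50.4, 59.1 and 89.6 CPM, a log2 fold change of 3.14 (SE 0.37, adjusted p = 0.0305). Timp1, the inhibitor of matrix metalloproteinases, had 2.66, 6.63 and 4.98 CPM against 24.03, 45.2 and 71.6 CPM and rose by 3.30 (SE 0.42, adjusted p = 0.0305). The BLM values of Cthrc1, Col8a1 and Timp1 were well clear of the PBS values, and mouse 141 was the lowest each time. Ccn4, a matricellular target of Wnt signaling, rose by 2.42 (adjusted p = 0.0258) from 5.48, 5.51 and 7.66 CPM to 21.9, 34.4 and 43.6 CPM. Tagln, the actin-binding protein SM22 of smooth muscle and myofibroblasts, changed less, from 87.2, 80.6 and 70.4 CPM to 150.3, 133 and 148 CPM, but with so little spread that a log2 fold change of 0.86 (SE 0.13) passed (adjusted p = 0.0341).

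Of 29 scar matrix genes, Cthrc1 and Col8a1 were called, 24 had a log2 fold change above 0 and the median was 0.89. The abundant collagens were not among the calls. Col1a1, the main collagen of dermis, had 1559.8, 5054 and 3565 CPM against 2905, 8835 and 8828 CPM. Col5a2, a chain of the collagen that sets fibril width, had 144, 332 and 401 CPM against 369.5, 642 and 683 CPM. Their groups overlapped, with log2 fold changes of 1.01 (adjusted p = 0.318) and 0.95 (adjusted p = 0.225). Col12a1, a collagen that links fibrils, had 128, 66.4 and 89.2 CPM against 233, 381 and 609.8 CPM and came close to the threshold (adjusted p = 0.0541). Among 25 genes for crosslinking and processing of collagen none (0) was called in edgeR (10 at an unadjusted p under 0.05 and 3 higher and 1 lower in DESeq2). Pcolce2, an enhancer of procollagen cleavage, had a log2 fold change of -2.43 (adjusted p = 0.057), whereas Loxl3 and P3h1, a lysyl oxidase and a prolyl hydroxylase, had 1.35 and 1.01 (adjusted p = 0.115 and 0.137). Without mice 136 and 141, 9 of the 29 scar matrix and 6 of the 25 crosslinking genes were called higher, where 13.5% of all genes were.

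Of 22 myofibroblast genes, Ccn4 and Tagln were called, 13 had a log2 fold change above 0 and the median was 0.17. In 6 of the 22 all BLM mice lay above all PBS mice, and in 2 below them. Acta2, the smooth muscle actin that defines myofibroblasts, had 159, 186 and 167 CPM against 255, 258 and 360.0 CPM, groups that did not overlap, and a log2 fold change of 0.77 (adjusted p = 0.0917, and 0.0275 without mice 136 and 141). Among 21 metalloproteinases and inhibitors Timp1 alone was called with all mice in edgeR, and DESeq2 called 6 higher and 3 lower. Of the 21, 15 had a log2 fold change above 0 and the median was 0.60. In 6 all BLM mice lay above all PBS mice, and in 3 below them. Mmp13, a collagenase, had 0.632, 0.914 and 1.76 CPM against 2.48, 43.3 and 57.7 CPM (adjusted p = 0.059). Mmp10, a stromelysin, had 0, 0.0857 and 0.0894 CPM against 0.398, 4.50 and 6.29 CPM (adjusted p = 0.0799). For both, mouse 141 lay just above the PBS mice and mice 143 and 144 far above.

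The genes that bleomycin lowered included several of connective tissue and of resting dermal fibroblasts. Inmt, a methyltransferase of stromal cells, had 4.52, 58.2 and 21.99 CPM in KO PBS and 0.153, 0.0310 and 0.106 CPM in KO BLM mice, a fall of 8.13 on the log2 scale (SE 1.40, adjusted p = 0.0476). Myoc, the secreted glycoprotein myocilin, had 15.7, 56.1 and 129 CPM against 3.46, 1.40 and 1.24 CPM and fell by 5.04 (SE 0.84, adjusted p = 0.0457). Hmcn2, a hemicentin of the extracellular matrix, had 26.9, 50.1 and 76.9 CPM against 5.94, 7.44 and 10.3 CPM and fell by 2.70 (SE 0.43, adjusted p = 0.0414). At each of these genes mouse 136 was the lowest of the PBS mice and was still above every BLM mouse. Col6a6, a collagen VI chain, had 10.5, 23.6 and 21.8 CPM against 4.22, 4.40 and 3.18 CPM and fell by 2.24 (adjusted p = 0.0305). Ltbp4, which binds latent TGF-β and helps to assemble elastic fibres, had 562, 477 and 506 CPM against 285, 245 and 269 CPM and fell by 0.95 (SE 0.14, adjusted p = 0.0341). The other named genes that fell were Tmeff2, a transmembrane protein with follistatin-like domains, by 3.29, Slc6a7, a proline transporter, by 2.71, Dapk1, a death-associated kinase, by 1.29, and Mtus1, a microtubule-associated protein, by 0.69.

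Of 29 resident dermal fibroblast genes, Hmcn2 and Myoc were called lower and none (0) higher, 11 had all BLM mice below all PBS mice, and the median was -1.31, the lowest of the 43 lists. Pi16, a marker of adventitial fibroblasts, had 96.8, 229 and 276 CPM against 25.4, 31.4 and 11.5 CPM and just missed the threshold (adjusted p = 0.053). Without mice 136 and 141, 13 of the 29 were called lower, where 8.73% of all genes were. Of 26 TGF-β genes, Ltbp4 was called lower with all mice. Only 8 of the 26 had a log2 fold change above 0, and the median was -0.21. The ligands Tgfb1 and Tgfb3 were among these 8, with log2 fold changes of 0.67 and 1.05 that did not pass (adjusted p = 0.164 and 0.169). Without mice 136 and 141, 3 of the 26 TGF-β genes were called higher and 6 lower. None of 25 integrin genes (0) was called in edgeR (6 at an unadjusted p under 0.05 and 3 higher and 0 lower in DESeq2), with Itga5, the fibronectin receptor subunit, nearest at 1.28 (adjusted p = 0.0553), followed by Itgb6 and Itgax at 0.73 and 1.72.

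**Figure D3:**
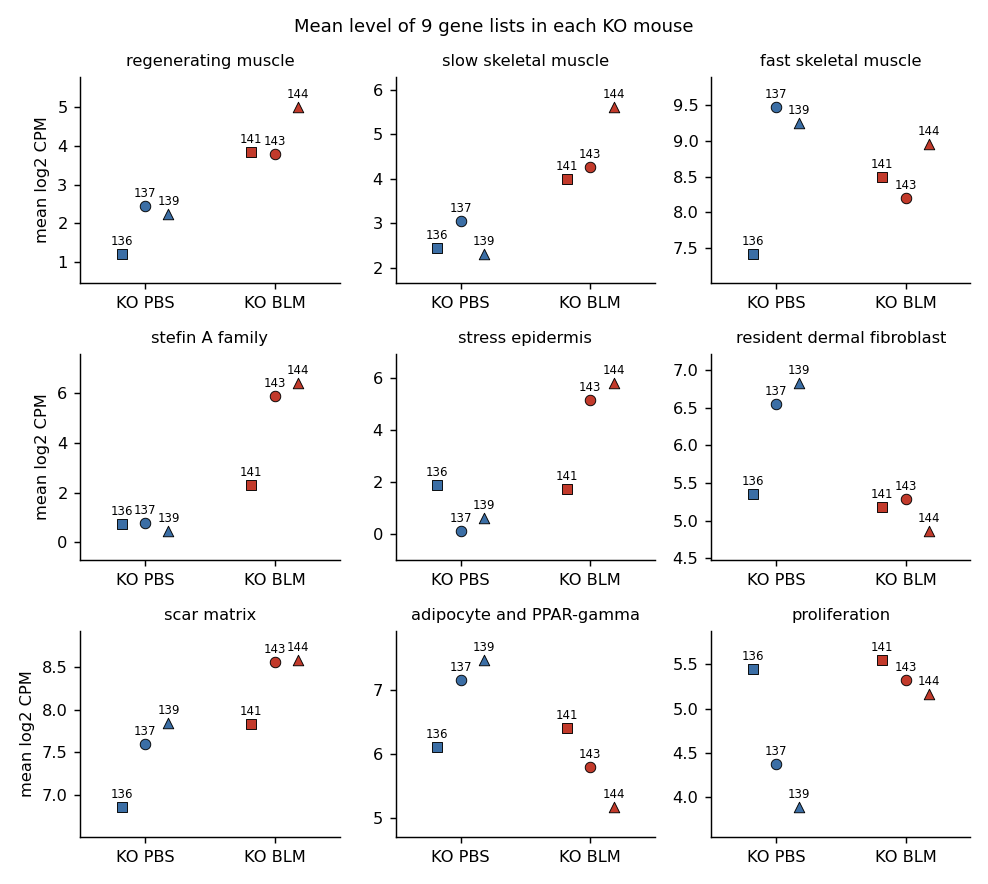
Mean log2 CPM (y axis, a scale of its own in each panel) of 9 gene lists in each KO mouse, by group (x axis), with mouse numbers above the points. The groups lie apart for the regenerating muscle, slow muscle, stefin and resident fibroblast lists and overlap for the others, where mouse 136 or 141 often lies nearer to the opposite group.

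A few immune receptors and ligands rose, while none of the macrophage list passed with all mice. Ly6c2, a marker of inflammatory monocytes, had 0.432, 1.37 and 0.775 CPM in KO PBS and 6.92, 9.95 and 11.5 CPM in KO BLM mice, a log2 fold change of 3.45 (SE 0.46, adjusted p = 0.0312). Cd22, an inhibitory B cell receptor, had 0.166, 0.743 and 0.507 CPM against 3.37, 8.13 and 6.26 CPM and rose by 3.62 (SE 0.56, adjusted p = 0.0387). Ccl3, a chemokine that draws monocytes and T cells, had 0.0332, 0.200 and 0.179 CPM against 1.32, 2.61 and 6.61 CPM and rose by 4.61 (SE 0.71, adjusted p = 0.0387). At Ly6c2, Cd22 and Ccl3 all 3 BLM mice lay above all 3 PBS mice, and mouse 141 was the lowest of the BLM mice. Cd300lf, an inhibitory receptor of myeloid cells, was named after its values were seen. It had 0.0332, 0.171 and 0.119 CPM against 2.48, 4.78 and 6.89 CPM and, with Ccn4, the smallest adjusted p of the comparison (0.0258, log2 fold change 5.37). Ly6c2 has near-identical neighbours in its family, so the split of reads among them is uncertain.

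None of 34 macrophage genes (0) was called with all mice in edgeR (12 at an unadjusted p under 0.05 and 6 higher and 1 lower in DESeq2), although 30 had a log2 fold change above 0 (median 0.67). Adgre1, which encodes the macrophage marker F4/80, had 17.2, 73.7 and 69.2 CPM against 70.9, 76.04 and 55.3 CPM. Mice 137 and 139 lay within the range of the BLM mice and mouse 136 far below it, and the log2 fold change of 0.34 (adjusted p = 0.705) became -0.12 without mice 136 and 141. Trem2, a lipid-sensing receptor of scar-associated macrophages, and Spp1, which encodes osteopontin, had log2 fold changes of 2.97 and 3.83 (adjusted p = 0.0585 and 0.0724). Cd163, a scavenger receptor of resident macrophages, went the other way, with 25.4, 129.9 and 131 CPM against 11.4, 13.4 and 9.22 CPM (adjusted p = 0.0681, and 0.0081 without the pair). Without the pair, 11 of the 34 macrophage genes were called higher and 1, Cd163, lower, where 13.5% and 8.73% of all genes were.

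The inflammatory genes described here, which the study assayed in skin by PCR, were not called with all mice. Fcgr4, an activating Fc receptor, had 0.632, 5.74 and 2.38 CPM against 10.3, 15.5 and 14.2 CPM (adjusted p = 0.151, and 0.0474 without mice 136 and 141). Tlr13, a sensor of bacterial RNA, had 1.46, 11.2 and 3.64 CPM against 13.9, 16.1 and 17.7 CPM (adjusted p = 0.202). At Tlr13 the groups did not overlap, but mouse 137 came close to the BLM mice. Ifi44, an interferon-induced gene, had 0.931, 6.77 and 2.92 CPM against 7.28, 7.75 and 6.36 CPM (adjusted p = 0.297). Mouse 136 was the lowest of the 6 mice at Fcgr4, Tlr13 and Ifi44. Fasl, the ligand of the death receptor Fas, had at most 0.682 CPM in any KO mouse (log2 fold change 1.89, adjusted p = 0.171).

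Of 34 chemokine ligands, Ccl3 was called and the median was 1.11. Cxcl1, which attracts neutrophils, had 0.133, 0.200 and 0.119 CPM against 0.429, 2.45 and 2.72 CPM (adjusted p = 0.0724). Cxcl2, of the same kind, had 0, 0.114 and 0.0298 CPM against 0.337, 0.775 and 12.8 CPM (adjusted p = 0.103), and its high value was that of mouse 144. The 11 neutrophil genes had a median of 2.03 and none (0) was called with all mice in edgeR (9 at an unadjusted p under 0.05 and 7 higher and 0 lower in DESeq2), against 7 without the pair. Clec4d and Cxcr2, a lectin and a chemokine receptor of neutrophils, both had an adjusted p of 0.0897. All 31 interferon-response genes and all 17 T cell genes had a log2 fold change above 0, with medians of 0.93 and 1.11, yet none (0) of either was called in edgeR. Unadjusted p values under 0.05 were found for 12 and 10 of them, and DESeq2 called 3 and 4. Isg15, a ubiquitin-like interferon product, had 4.49, 18.97 and 6.08 CPM against 28.1, 42.3 and 42.9 CPM (adjusted p = 0.119). Lck, the kinase of the T cell receptor, had 4.45, 4.77 and 4.89 CPM against 7.81, 13.9 and 9.26 CPM (adjusted p = 0.0724). Mouse 136 was the lowest of the 6 mice in mean log2 CPM of the macrophage, interferon, T cell and class II lists, with 3.96, 2.51, 1.01 and 4.16. Without the pair, 7 of the 31 interferon and 5 of the 17 T cell genes were called higher, where 13.5% of all genes were. None (0) of 14 class II antigen presentation genes, 13 mast cell genes and 28 NF-κB genes was called with all mice in edgeR, with 4, 2 and 11 at an unadjusted p under 0.05, 1, 2 and 4 called by DESeq2, and medians of 0.33, 0.81 and 0.30. Vcam1, an adhesion molecule, and Il1b, the cytokine interleukin-1β, came nearest in the NF-κB list (adjusted p = 0.0541 and 0.0553).

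On the lists of cell cycle inhibitors and p53 targets, Cdkn2a and Gdf15 rose. Cdkn2a, the locus of the cell cycle inhibitors p16 and p19Arf, had 0.133, 0.314 and 0.238 CPM in KO PBS and 2.45, 7.01 and 11.3 CPM in KO BLM mice, a log2 fold change of 4.88 (SE 0.61, adjusted p = 0.0305). Counts per gene do not separate its transcripts. Gdf15, a stress cytokine on the p53 target list, had 0.133, 0.314 and 0.536 CPM against 1.56, 3.07 and 2.90 CPM and rose by 2.91 (adjusted p = 0.0454). It was the only one of the 33 listed p53 targets called. Cdkn2a was the only one called of 7 listed cell cycle inhibitors of the kind that hold senescent cells in arrest. The p53 targets Phlda3 and Pmaip1, both promoters of cell death, had log2 fold changes of 0.86 and 1.46 (adjusted p = 0.0539 and 0.0738). Of 39 apoptosis genes none (0) was called with all mice in edgeR (15 at an unadjusted p under 0.05 and 8 higher and 1 lower in DESeq2), and Bcl2a1b, an inhibitor of cell death in leukocytes with near-identical copies, came nearest with 2.84 (adjusted p = 0.0585). Without mice 136 and 141, 16 of the 33 p53 targets were called higher and 3 lower, where 13.5% and 8.73% of all genes were.

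All 31 proliferation genes had a log2 fold change above 0 and none (0) was called with all mice in edgeR (11 at an unadjusted p under 0.05 and 2 higher and 0 lower in DESeq2, median 0.58). Their mean log2 CPM was 5.45, 4.38 and 3.88 in KO PBS and 5.55, 5.32 and 5.16 in KO BLM mice. Mouse 136 was as high as the BLM mice, and mice 137 and 139 were lower than all of them. Pcna, the clamp of DNA replication, had 66.6, 59.9 and 50.2 CPM against 74.6, 80.7 and 77.9 CPM (adjusted p = 0.135). Tyms, a thymidylate synthase, had 20.9, 13.5 and 12.8 CPM against 24.9, 25.6 and 22.9 CPM (adjusted p = 0.146). Without mice 136 and 141, 28 of the 31 were called higher. None of the 41 growing hair genes (0) was called in edgeR with all mice (0 at an unadjusted p under 0.05 and 0 higher and 0 lower in DESeq2). Their median log2 fold change of -0.82 became 3.95 without the pair, with 19 of the 41 called higher. Dividing cells of the follicle are measured in the same libraries, and their part in the proliferation list was not tested. Krt72, an inner root sheath keratin, had 3119.9, 0.0571 and 0.864 CPM against 462, 38.5 and 83.3 CPM, and its log2 fold change went from -2.42 to 7.05. The 16 pigment genes had a median of 0.85 with none (0) called in edgeR (3 at an unadjusted p under 0.05 and 0 higher and 0 lower in DESeq2), against 12 higher and 2 lower without the pair.

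Genes of fat had mostly negative log2 fold changes that did not pass with all mice. Of 26 adipocyte and PPARγ genes none (0) was called in edgeR (10 at an unadjusted p under 0.05 and 0 higher and 2 lower in DESeq2), 25 had a log2 fold change below 0 and the median was -1.10. Lep, which encodes the fat hormone leptin, had 29.8, 49.6 and 53.2 CPM against 11.8, 7.38 and 2.26 CPM, groups that did not overlap (log2 fold change -2.63, adjusted p = 0.116). Aqp7 and Angptl4, a glycerol channel and a lipase inhibitor, had log2 fold changes of -2.66 and -1.43 (adjusted p = 0.141 and 0.175). Without mice 136 and 141, 15 of the 26 were called lower, with adjusted p values of 0.0207, 0.0202 and 0.0478 for these 3 genes. Of 21 sebaceous gland genes and 24 genes of PPARα-driven fat oxidation none (0) was called with all mice in edgeR, with 7 of each at an unadjusted p under 0.05 and 4 and 3 called by DESeq2. Without the pair 9 and 6 were called lower and 2 sebaceous genes higher, where 8.73% of all genes were called lower and 13.5% higher.

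Of further pathways, most of them examined by the study and written here as lists of core genes, few held a called gene. The calcium signaling list had 1 of 77, Tnnc1, and the Hippo list 1 of 26, Ankrd1. None (0) was called among 58 phosphatidylinositol signaling, 10 urea cycle, 25 glyoxylate and dicarboxylate, 21 terpenoid backbone, 18 Hedgehog and 56 Wnt genes, where the medians lay between -0.18 and 0.23. In the order named, edgeR gave 6, 0, 1, 3, 2 and 13 of them an unadjusted p under 0.05, and DESeq2 called 1, 0, 0, 1, 1 and 0. Over all 18311 genes tested in edgeR, 3665 had such a p. Without mice 136 and 141, the calcium, phosphatidylinositol and Wnt lists had 10, 11 and 11 genes called lower, against 3, 3 and 2 higher. Over all genes 8.73% were called lower and 13.5% higher, so the calcium list, with 10 of 77, lay not far from the former. In that fit the urea cycle and terpenoid lists had 5 of 10 and 6 of 21 called higher, against 0 and 1 lower. The glyoxylate and dicarboxylate, Hedgehog and Hippo lists had 2, 1 and 1 called higher and 4, 3 and 4 lower. Inpp4a, a phosphatidylinositol phosphatase, had 28.5, 36.9 and 37.6 CPM against 25.8, 21.4 and 20.96 CPM (adjusted p = 0.101, and 0.0081 without the pair). The 21 endothelial, 20 nerve, 8 erythrocyte and 19 circadian clock genes held no call with all mice (0), with 4, 3, 0 and 5 at an unadjusted p under 0.05 in edgeR, 1, 1, 0 and 1 called by DESeq2, and medians of 0.01, -0.20, -0.24 and -0.36. Bhlhe40, a clock repressor that also responds to stress, had 78.05, 86.6 and 75.5 CPM against 117, 195 and 222 CPM (adjusted p = 0.0585), whereas 9 of the other clock genes were called lower without the pair, among them Nr1d1 (-1.05, adjusted p = 0.00519).

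**Figure D4:**
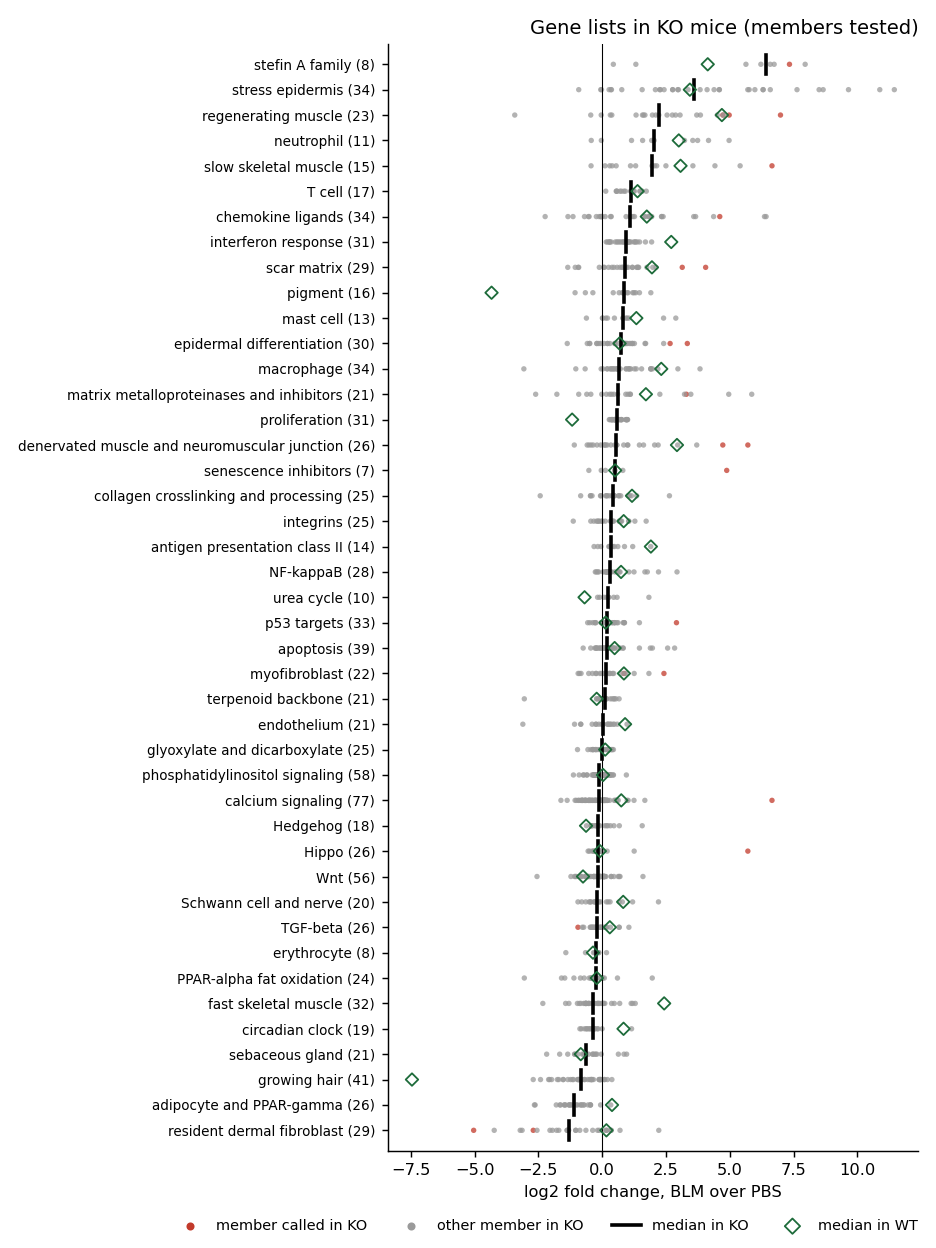
Log2 fold change of bleomycin over PBS (x axis) for each member tested of 43 gene lists (y axis, with the number of members), red for members called in KO mice and grey for the others. Black bars are the medians in KO mice, from -1.31 for resident dermal fibroblasts to 6.40 for the stefin family, and open diamonds are the medians in WT mice, which lie farther right for the muscle, interferon and macrophage lists.

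The KO response was set against the WT response by testing the difference of the changes in the same fit. No gene passed (0 of 18311, 0%, smallest adjusted p = 0.0604 in edgeR), while 5687 genes (31.1%) had an unadjusted p under 0.05 and DESeq2 called 3253. Without mouse 136 the count was 7470, and without mice 136 and 141 it was 7218. Among the 56 genes called in KO mice, 24 had an unadjusted p under 0.05 for the difference. Of the 56, 39 were also called in WT mice, where 34% of all genes were called, 38 of them in the same direction. These values rest on the model without the hair list. With that list as a covariate, 9 genes were called in WT mice in place of 6222, and 1305 in place of 5687 had an unadjusted p under 0.05 for the difference, again with 0 called. In WT mice the hair level followed the treatment, at 8.73 to 9.39 with PBS and -0.22 to 2.81 with bleomycin. The covariate and bleomycin can hardly be told apart there, so the fall in WT calls followed from the design, and its cause was not tested. Among the 39 genes called in both genotypes, the exception to a shared direction was Gm14226, a gene model named after its values were seen. It had 2, 0 and 0 counts in the KO PBS mice and 5.14, 4.12 and 3.78 CPM in the KO BLM mice, at least 47.5-fold higher against 3 counts per library, and fell in WT mice from 9.25 ± 6.32 CPM to 0.165 ± 0.196 (SD, n = 3) CPM.

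Of the genes with the largest rises, several had a difference between the genotypes near 0. For Myh3 the log2 fold change was 6.99 in KO and 7.16 in WT mice, a difference of -0.18 (SE 1.35), for Tnnc1 the difference was -0.17 (SE 1.19), for Cstdc5 0.27 (SE 1.38) and for Cthrc1 0.08 (SE 0.74). The standard errors leave room for differences of more than 2-fold in either direction at Myh3, Tnnc1 and Cstdc5. Other raised genes had a smaller change in KO than in WT mice without passing, with differences of -1.59 for Mymk (unadjusted p = 0.144), -1.48 for Chrng (0.187), -2.12 for Ptprn (0.0729) and -0.97 for Col8a1 (0.0739). Casp14 had a log2 fold change of 0.01 in WT mice, with 316 ± 26.7 CPM in WT PBS and 319 ± 164 (SD, n = 3) CPM in WT BLM mice. All 3 KO PBS mice, at 116, 117 and 91.6 CPM, lay below that WT PBS mean. The difference of 2.65 (SE 0.52) had an unadjusted p of 0.000421 and an adjusted p of 0.0702. Tagln, Elf3, Hmcn2, Dapk1 and Mtus1 also had a smaller change in WT mice, with WT log2 fold changes of -0.20, 0.17, -0.21, -0.13 and 0.16, none of which passed in WT mice, and differences with an unadjusted p of 0.000116, 0.0011, 0.00139, 0.00146 and 0.000276 (adjusted p = 0.0702 for each). In the same order, their KO PBS means were 79.4, 1.08, 51.3, 74.9 and 118 CPM. Their WT PBS means were 126, 3.66, 24.2, 44.8 and 75.4 CPM, so the PBS groups of the genotypes were unequal as well.

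At the level of lists, all 31 proliferation genes and 29 of the 32 fast-muscle genes had an unadjusted p under 0.05 for the difference, as did 13 of 23 regenerating muscle, 15 of 26 denervated muscle, 23 of 31 interferon, 20 of 34 macrophage and 7 of 29 resident fibroblast genes, where 31.1% of all genes did. The medians in KO and WT mice were 0.58 and -1.18 for proliferation, -0.35 and 2.43 for fast muscle, 2.22 and 4.69 for regenerating muscle, 0.53 and 2.93 for denervated muscle, 0.93 and 2.71 for interferon response, and 0.67 and 2.31 for macrophages. None (0) of the 8 stefin and 17 T cell genes had such a p. The hair list differed between the genotypes as well, with a median of -7.46 in WT mice, and all 3 WT PBS mice were in the high range where 1 of 3 KO PBS mice was, so hair growth and genotype cannot be told apart in the difference.

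**Figure D5:**
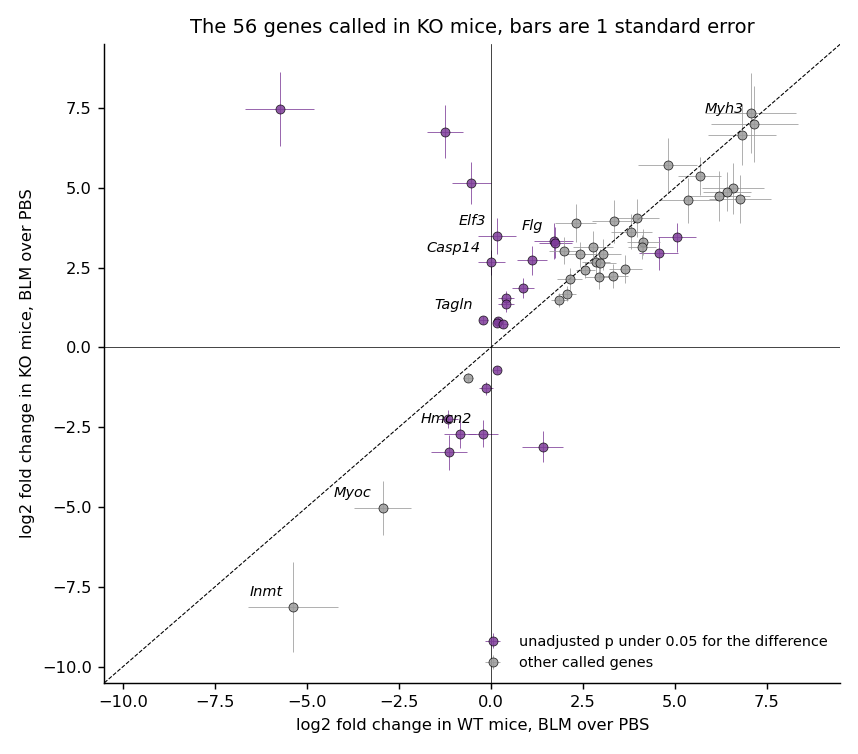
Log2 fold change of bleomycin over PBS in KO mice (y axis) against that in WT mice (x axis) for the 56 genes called in KO mice, with bars of 1 standard error and a dashed line of equal change. Purple marks the 24 genes with an unadjusted p under 0.05 for the difference, among them Casp14, Elf3 and Tagln near 0 in WT mice, while Myh3, Myoc and Inmt are grey.

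The fit without mice 136 and 141, mice 143 and 144 against mice 137 and 139, called 2532 genes higher and 1632 lower. Besides the lists above, its highest named genes were Krt6b, Uox, Lyg2, Lce3d and Tdh, and its lowest were Hamp2, Il31ra, Nnat, Myh4 and Mstn. Lyg2, a lysozyme-like gene, had 111, 0 and 0.0596 CPM in KO PBS and 177, 13.1 and 25.3 CPM in KO BLM mice, highest in the same mice as the hair list (adjusted p = 0.0125). Uox, which encodes urate oxidase, had 10.9, 0 and 0 CPM against 5.42, 6.82 and 5.05 CPM (adjusted p = 0.0214). Tdh, a threonine dehydrogenase, had 12.9, 0.229 and 0.0298 CPM against 12.8, 37.3 and 72.00 CPM (adjusted p = 0.00344). At Lyg2, Uox and Tdh mouse 136 was far above the other PBS mice, at the level of the BLM mice or near it. Lce3d, a late cornified envelope protein, had 1.63, 0.0286 and 0.0298 CPM against 0.826, 10.5 and 23.4 CPM (adjusted p = 0.0172). Mice 137 and 139 had at most 3 counts at Lyg2, Uox and Lce3d, so no fold is given for them. Il31ra, the receptor subunit for the itch cytokine interleukin-31, fell by 5.44 on the log2 scale (adjusted p = 0.00422) and had 7.88, 71.8 and 26.3 CPM against 5.02, 1.36 and 0.884 CPM in the full groups. Hamp2, a hepcidin gene, and Nnat, which encodes neuronatin, fell by 5.81 and 5.41 (adjusted p = 0.0111 and 0.0162). For Il31ra, Hamp2 and Nnat mouse 141 lay between the other BLM mice and the PBS mice, and mouse 136 was the lowest of the PBS mice.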

How the data were processed

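RNA from skin of 12 mice was sequenced as stranded mRNA libraries, and the authors deposited whole-number read counts per gene symbol, with no normalization. The submitters' processing notes name GRCm38.p6 and MultiQC 1.7, and the aligner and counter are not given in the sources used here. Each library is labelled as a separate mouse, so p-values measure the spread between mice.

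Counts were scaled by TMM in edgeR 4.0.16 (R 4.3.3), genes passing filterByExpr (minimum count 10, minimum total 15) were kept, and the quasi-likelihood test was fitted to all 12 mice with 4 group means and 1 shared spread (biological coefficient of variation 34.9%). KO BLM was compared with KO PBS, and that change with the WT change. P-values were adjusted by Benjamini-Hochberg over all genes tested, with a threshold of 0.05. Mean log2 CPM values use a prior count of 2, which was not applied to the log2 fold changes. An exact permutation test of 3 against 3 mice cannot go below 0.1, so none was used. The scripts were tested on simulated data.

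Alternatives were DESeq2 1.42.0, RLE and upper-quartile scaling, other count filters, the KO mice alone, the hair list as a covariate, and each mouse, or mice 136 and 141 together, left out. Mice 136 and 141 were picked for their hair values in these data, and DESeq2 without them was added after the data were seen. The comparison and the 43 gene lists were chosen with earlier results of these data known, so counts and medians of lists are descriptions and no independent support. Named were the 15 highest and 10 lowest genes called (9 were lower), with a known symbol and a mean log2 CPM of at least 0, up to 3 members of each list with the smallest p, genes the study assayed by PCR or staining, and the 5 highest and 5 lowest further genes without mice 136 and 141. Promoter windows came from RefSeq, where 43 of the 56 called genes had an entry. A few genes that this rule names are not reported here.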

Additional observations from a re-analysis of the deposited data

How the results depend on the processing

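The count of 56 genes for KO BLM against KO PBS became 1202 in DESeq2, 600 in DESeq2 and 0 in edgeR on the KO mice alone, 34 with upper-quartile scaling, 176 without a filter, 1746 with the hair list as a covariate, and 4164 in edgeR and 5398 in DESeq2 without mice 136 and 141. Leaving out 1 mouse gave 0 to 2632. The count of 0 for the difference from WT became 3253 in DESeq2, 20 without a filter, and 7218 in edgeR and 7915 in DESeq2 without mice 136 and 141, and lay between 0 and 7470 with 1 mouse left out. RLE scaling and a minimum mean of 1 CPM gave 42 and 40 genes for KO BLM against KO PBS and 0 for the difference. The causes were not tested. Of 151 named genes, 147 kept their direction in every alternative. With 1 mouse left out, the log2 fold change of Krt39, a hair keratin, ran from -5.26 without mouse 141 to 3.80 without mouse 136, against -2.70 with all mice, and was 1.20 without both (1.16 in DESeq2). For Krt72 it ran from -4.05 without mouse 141 to 8.72 without mouse 136, against -2.42, and was 7.05 without both (7.01 in DESeq2) and 0.94 with the covariate. For Adgre1 it ran from -0.085 without mouse 136 to 0.64 without mouse 137, against 0.34, and was -0.12 without both mice 136 and 141 (-0.16 in DESeq2). For Lyg2 it ran from -0.91 without mouse 141 to 11.08 without mouse 136, against 0.95, and the value of 11.08 is a fitted one against PBS mice with at most 3 counts and gives no size. Median changes moved by more than 1 SD in 8 of 43 lists without mice 136 and 141. No paired analysis was possible because every mouse has a number of its own. At 3 mice a side and this spread, genes that missed the threshold are not shown to be unchanged.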
